A study of Mus musculus with 15 samples.

Results

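The genes described here are 10 genes that serve astrocytes in transmitter uptake, water and potassium handling, coupling and the response to injury: Slc1a2, Slc1a3, Slc6a11, Glul, Aqp4, Gja1, Gjb6, Gfap, Vim and Aldh1l1. They were chosen by name and make up 10 of the 32285 genes counted. The data are snRNA-seq counts from bilateral micropunches of the dorsal hippocampal formation (dHF) of 15 female C57BL6/J mice, taken weeks after weaning. The groups were 6 age-matched virgin nulliparous mice (NP), 4 dams with an undisturbed reproductive experience (control RE) and 5 dams whose pups were separated from them daily, with limited nesting material, in later lactation (stress RE). Each library came from 1 mouse, which was the replicate. Per the paper, the punches also took in parts of the cortex, thalamus and ventral hippocampus. The question was in which cells of the punches each gene is expressed and how the astrocyte types differ in it. A further question was whether the level of each gene in astrocytes differed between NP, control RE and stress RE.

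Astrocytes clear glutamate and GABA from the space around synapses, turn glutamate into glutamine, and pass water, potassium and metabolites among themselves through channels and gap junctions. GLT-1 (Slc1a2) and GLAST (Slc1a3) take up glutamate, GAT-3 (Slc6a11) takes up GABA, and glutamine synthetase (Glul) makes the glutamine that is returned to neurons. Aquaporin-4 (Aqp4) is the water channel of the endfeet on blood vessels and at the brain surface, connexin 43 (Gja1) and connexin 30 (Gjb6) form the gap junctions, GFAP and vimentin (Gfap, Vim) are intermediate filaments that rise in reactive astrocytes, and Aldh1l1 is a folate enzyme widely used as an astrocyte label.

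The 15 libraries held 40602582 to 96211264 UMIs (unique molecular identifiers, the count of distinct captured RNA molecules), with a median of 3993 to 8754 UMIs per barcode, and 123913 of 134019 barcodes were kept as nuclei. Clusters built without the 10 genes gave 8881 astrocyte nuclei, 208 to 964 per mouse, with a median of 3398 UMIs. No pair of libraries shared more than 47 cell barcodes. Control RE mice were missing from batch 1, which held 2 NP mice and 1 of the stress RE group, so groups and batches are not balanced. The paper describes sample processing in batches that each held every group, which batch 1 does not match. Whether the batches used here are those processing batches is not known. The batch 1 mice entered the reported fits of all astrocytes and of the 3 types, and a batch term and values within batches 2 and 3 were the alternatives. Markers of other cells were present in the astrocyte nuclei of every mouse. Levels are in CPM (UMIs of a gene scaled to the same total in every class and mouse, the usual CPM scale). The summed level was 196 to 548 CPM for 11 oligodendrocyte markers. For 6 pan-neuronal markers it was 763 to 3309 CPM, with the lowest and the highest value in NP mice. It was 81.8 to 147 CPM for 8 microglial markers and 17.6 ± 6.86 CPM (mean ± SD) for 8 ependymal markers. None of these markers was at 0 over the astrocytes as a whole.

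All 10 genes are protein coding. In GRCm38, 9 of them lie at chr2:102658659-102790784 (Slc1a2), chr15:8634124-8710764 (Slc1a3), chr6:114131241-114249952 (Slc6a11), chr1:153899944-153909723 (Glul), chr10:56377330-56402513 (Gja1), chr14:57123303-57133611 (Gjb6), chr11:102887336-102900912 (Gfap), chr2:13573927-13582826 (Vim) and chr6:90486427-90600203 (Aldh1l1). Slc1a2, Glul, Aqp4 and Aldh1l1 overlap other annotated genes, on the opposite strand except for Gm45901 within Aldh1l1, and reads from the shared stretch of Aldh1l1 and Gm45901 cannot be told apart. Promoters of 9 of the 10 genes were in the RefSeq table of GRCm38.p6. The 4 shown are those of the glutamate transporters, whose levels separated the Gldc and Slc6a11 astrocyte types in every mouse, and of the filament genes, which were highest in different cell classes. Each is the 250 bases upstream of 1 RefSeq start, 5′ to 3′ on the strand of the gene. The windows of Slc1a2, Gfap and Vim lie inside the gene spans given above, so they belong to internal starts. That of Slc1a3 lies upstream of its span. Capitals mark a match to the NFI half-site TTGGC, the STAT site TTCNNNGAA or the TATA box TATAAA on either strand.

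Slc1a2, chr2:102706188-102706437, plus strand: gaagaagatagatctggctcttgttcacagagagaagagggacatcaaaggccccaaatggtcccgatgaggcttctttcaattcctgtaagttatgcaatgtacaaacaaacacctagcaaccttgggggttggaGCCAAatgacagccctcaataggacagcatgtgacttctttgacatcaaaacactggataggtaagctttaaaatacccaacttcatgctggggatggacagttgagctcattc

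Slc1a3, chr15:8710808-8711057, minus strand: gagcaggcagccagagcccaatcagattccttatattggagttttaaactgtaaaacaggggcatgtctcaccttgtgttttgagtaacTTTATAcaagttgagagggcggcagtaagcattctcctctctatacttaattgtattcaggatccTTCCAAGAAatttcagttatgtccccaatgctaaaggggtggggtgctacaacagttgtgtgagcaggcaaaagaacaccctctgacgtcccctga

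Gfap, chr11:102897201-102897450, minus strand: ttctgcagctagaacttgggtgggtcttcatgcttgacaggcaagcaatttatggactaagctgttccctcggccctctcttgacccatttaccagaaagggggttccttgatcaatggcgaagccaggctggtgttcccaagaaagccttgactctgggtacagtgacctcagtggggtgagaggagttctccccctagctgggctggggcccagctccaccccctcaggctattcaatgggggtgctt

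Vim, chr2:13574061-13574310, plus strand: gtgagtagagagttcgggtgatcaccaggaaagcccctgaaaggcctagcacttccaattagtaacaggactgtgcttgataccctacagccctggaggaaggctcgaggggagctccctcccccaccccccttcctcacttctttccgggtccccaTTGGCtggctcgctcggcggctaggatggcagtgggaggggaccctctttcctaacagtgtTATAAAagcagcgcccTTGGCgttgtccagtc

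Slc1a2 had 1 NFI half-site, Slc1a3 had 1 STAT site and 1 TATA box, Vim had 2 NFI half-sites and 1 TATA box, and Gfap had no match in this window. Of 32851 promoters of the same length, 41.5% held the NFI half-site, 7.02% the STAT site and 12.4% the TATA box. These matches describe the letters only, and their function was not tested.

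The glutamate transporter genes were high in astrocytes but not limited to them. Astrocytes were 7.17% of the nuclei and gave 50.0% of all Slc1a2 UMIs and 53.9% of all Slc1a3 UMIs. Over the whole astrocyte class the summed level was 6905 ± 782 CPM for Slc1a2 (mean ± SD, n = 15 mice, as for all levels that follow unless n is given) and 1796 ± 174 CPM for Slc1a3. These and other levels by class are descriptions with no test. Counts are not adjusted for gene length, so levels are compared between classes for 1 gene and not between genes. Nor are counts corrected for free RNA, and its part in low levels outside astrocytes was not tested.

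The nearest classes were those set apart from the astrocyte clusters themselves. Sub-clusters of astrocyte clusters with radial glia markers (396 nuclei) and with markers of cycling or immature cells (143 nuclei) were not counted as astrocytes. The radial glia sub-cluster held 5598 ± 862 CPM of Slc1a2 and 3569 ± 315 CPM of Slc1a3 (n = 14), the latter above every astrocyte type, and the cycling sub-cluster 2416 ± 365 and 1420 ± 402 CPM (n = 6). In the radial glia sub-cluster Slc6a11 was at 238 ± 82.0 CPM, Glul at 213 ± 93.7 CPM, Gfap at 93.9 ± 51.0 CPM and Aldh1l1 at 34.8 ± 22.9 CPM, and Aqp4, Gja1 and Gjb6 were at 68.2 ± 44.5, 117 ± 76.6 and 18.8 ± 15.4 CPM. The class orders that follow leave these 2 sub-clusters out.

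Among the other named classes, the highest Slc1a2 level was in CA3 pyramidal neurons, at 732 ± 50.8 CPM, which gave 13.5% of all Slc1a2 UMIs. Hilar mossy cells followed at 481 ± 62.0 CPM (n = 13 mice with at least 10 such nuclei), above oligodendrocyte precursors at 421 ± 34.9 CPM and thalamic or habenular neurons at 296 ± 28.6 CPM. CA3 exceeded mossy cells in 13 of 13 mice. Newly formed oligodendrocytes ranged from 22.1 to 2014 CPM of Slc1a2, and the highest mouse, stress RE replicate 2, also had the highest summed level of 12 astrocyte markers in that class, 4942 CPM. The part of astrocyte RNA in that value was not tested.

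Slc1a3 had a different order of classes. Vascular leptomeningeal cells, the fibroblasts of the meninges and large vessels, held 1349 ± 225 CPM of Slc1a3, a level between those of the Gfap-Thbs4 and Slc6a11 astrocyte types described below and above the latter in 13 of 15 mice. Ependymal cells, which line the ventricles, held 454 ± 224 CPM (n = 8), microglia 231 ± 33.2 CPM and oligodendrocyte precursors 184 ± 20.9 CPM. The GABA transporter gene Slc6a11 was more restricted, with 75.1% of its UMIs in astrocytes. Its highest level in neurons was 24.3 ± 4.25 CPM, in GABAergic neurons outside the interneuron class, within 1 SD of its level in oligodendrocyte precursors (22.5 ± 5.07 CPM).

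**Figure D1:**
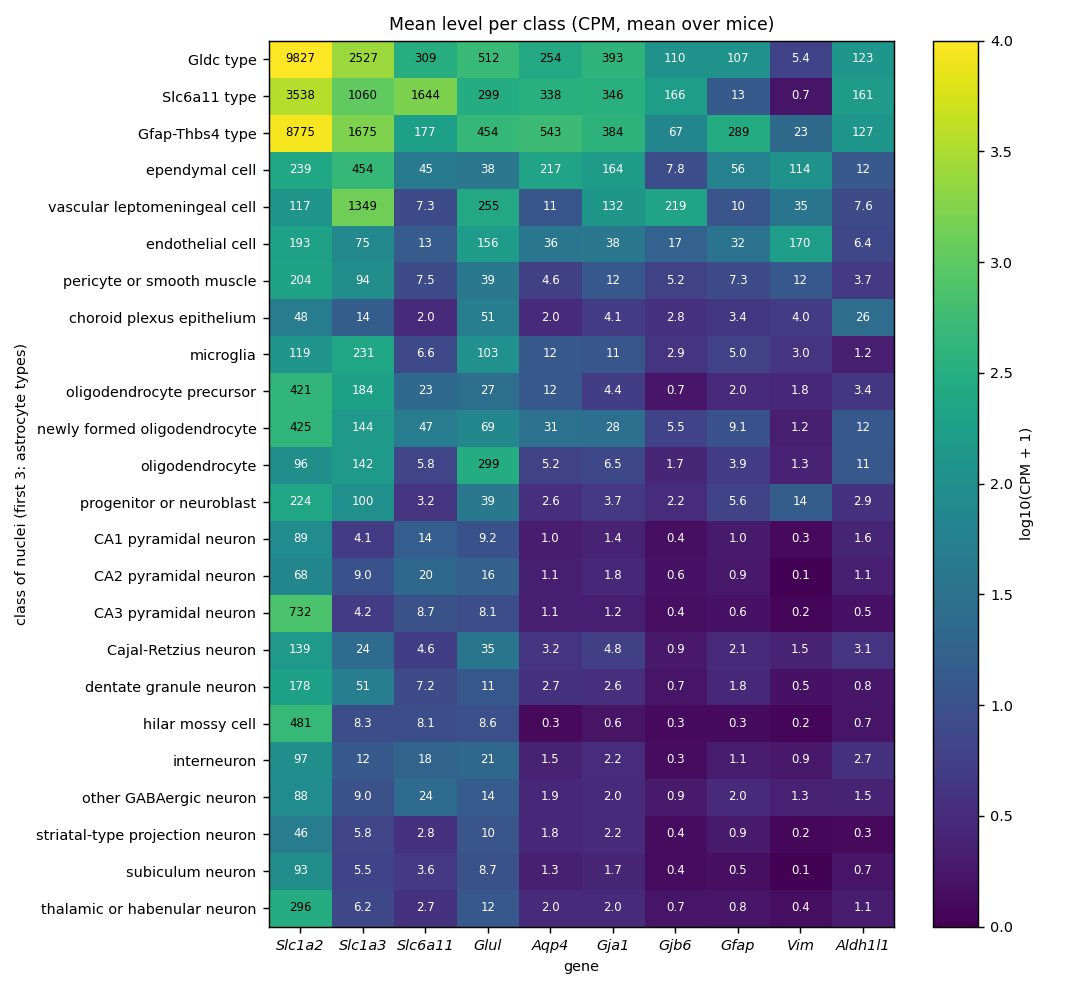
Level of the 10 genes (columns) in 24 named classes of nuclei (rows), the first 3 of them the astrocyte types. Colour is log10(CPM + 1) and the figure in each cell is the mean CPM over mice with at least 10 nuclei in the class. Slc1a2 reaches 732 CPM in CA3 pyramidal neurons, Glul spreads to oligodendrocytes, Gjb6 is highest in vascular leptomeningeal cells and Vim in endothelial cells.

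Glul was shared between astrocytes and oligodendrocytes. Its level was 406 ± 53.5 CPM in astrocytes and 299 ± 74.5 CPM in oligodendrocytes, the myelin-forming cells. As oligodendrocytes were 24.1% of the nuclei, they gave 47.7% of all Glul UMIs and astrocytes 25.8%. In vascular leptomeningeal cells Glul was at 255 ± 75.8 CPM, below oligodendrocytes in 8 of 15 mice only, so these classes did not differ beyond their spread. Endothelial cells held 156 ± 55.1 CPM and microglia 103 ± 20.4 CPM.

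Aqp4 (chr18:15389496-15410982 in GRCm38) and Gja1 were concentrated in astrocytes. These gave 79.2% of Aqp4 UMIs and 77.2% of Gja1 UMIs, with levels of 329 ± 49.9 CPM and 372 ± 70.2 CPM. For both genes ependymal cells came next, with 217 ± 112 CPM of Aqp4 and 164 ± 44.4 CPM of Gja1 (n = 8), and for Gja1 the vascular leptomeningeal cells followed with 132 ± 50.4 CPM. Gjb6, the other connexin gene, was at 127 ± 22.2 CPM in astrocytes, which gave 69.9% of its UMIs. The class with the highest Gjb6 level was the vascular leptomeningeal cells, at 219 ± 48.3 CPM, above the highest astrocyte type in 12 of 15 mice.

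The filament genes had different class patterns. Gfap was at 90.4 ± 20.2 CPM in astrocytes, which gave 63.3% of its UMIs, and at 56.2 ± 35.2 CPM in ependymal cells (n = 8) and 32.2 ± 34.2 CPM in endothelial cells. Most Vim UMIs lay outside astrocytes. Its level was 170 ± 54.7 CPM in endothelial cells, 114 ± 75.7 CPM in ependymal cells (n = 8) and 34.8 ± 15.3 CPM in vascular leptomeningeal cells, against 5.99 ± 2.31 CPM in astrocytes, where 185 UMIs were counted in all 15 mice together. Astrocytes gave 11.5% of the Vim UMIs and endothelial cells 35.6%. Aldh1l1 was at 140 ± 18.8 CPM in astrocytes, which gave 67.6% of its UMIs, and at 26.2 ± 8.74 CPM in choroid plexus epithelium (n = 13).

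Seen per nucleus, the genes differed in how often a UMI was caught. When each nucleus was thinned to 1000 UMIs, which left out 79 shallow astrocyte nuclei, Slc1a2 was found in 96.1% of astrocyte nuclei (95% Wilson interval 95.7 to 96.5%, counting error only) and Slc1a3 in 74.6%. Slc6a11 followed at 43.9%, Glul at 32.2%, Gja1 at 29.7% and Aqp4 at 25.0%. Aldh1l1 was found in 12.6%, Gjb6 in 11.6%, Gfap in 8.23% and Vim in 0.648%. The shares in the counts as deposited were higher: 99.4%, 94.1%, 70.7%, 67.5%, 65.1%, 56.5%, 36.6%, 33.7%, 20.5% and 1.88% in the same order.

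Dentate granule neurons, thinned in the same way from a median of 7915 UMIs with 1829 nuclei left out, give the background of free RNA and of their own expression. There Slc1a2 was found in 16.7% of nuclei and Slc1a3 in 4.96%, and the other 8 genes in 0.0640% (Vim) to 1.28% (Glul). Each of the 10 genes was therefore found in a larger share of astrocyte than of granule nuclei at equal depth.

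Astrocytes were divided into the 3 types by their Gldc, Slc6a11, Gfap and Thbs4 UMIs, in sub-clusters of the astrocyte nuclei. Sub-clusters in which the marker reached 1.5 times its level over all astrocyte nuclei, or both markers for the Gfap-Thbs4 type, took the name. The Gldc type had 4271 nuclei, the Slc6a11 type 3465 and the Gfap-Thbs4 type 845, and 300 nuclei had no type. The 12 astrocyte markers summed to 18490 ± 1330 CPM in the Gldc type, 14159 ± 1220 CPM in the Slc6a11 type and 9822 ± 2024 CPM in the Gfap-Thbs4 type, and to 3402 ± 920 CPM in the nuclei of no type. A further 5 genes of astrocytes outside the telencephalon (Agt, Slc6a9, Irx5, Itih3 and Sparc) summed to 682 ± 110 CPM in the Slc6a11 type, against 87.3 ± 17.8 CPM in the Gldc type and 85.3 ± 28.3 CPM in the Gfap-Thbs4 type. The punches also held 7978 thalamic or habenular neurons, and the tissue the Slc6a11 type came from was not tested.

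The glutamate transporter genes set the types apart. Slc1a2 was at 9827 ± 530 CPM in the Gldc type, 8775 ± 884 CPM in the Gfap-Thbs4 type and 3538 ± 312 CPM in the Slc6a11 type. It was higher in the Gldc than in the Slc6a11 type in 15 of 15 mice, by 1.48 ± 0.12 on the log2 scale. Slc1a3 followed the same order of Gldc over Slc6a11 type, at 2527 ± 170 and 1060 ± 95.1 CPM, again in 15 of 15 mice. In the Gfap-Thbs4 type Slc1a3 was at 1675 ± 335 CPM, below the Gldc type in every mouse. Slc6a11, which named its type and is no finding there, was at 1644 ± 215 CPM in the Slc6a11 type, 309 ± 31.3 CPM in the Gldc type and 177 ± 69.2 CPM in the Gfap-Thbs4 type.

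Glul also ran lower in the Slc6a11 type, at 299 ± 51.7 CPM against 512 ± 73.5 CPM in the Gldc type, in 15 of 15 mice, while the Gfap-Thbs4 type, at 454 ± 117 CPM, was below the Gldc type in 11 of 15. The connexin genes differed from each other. Gjb6 was higher in the Slc6a11 type (166 ± 24.8 CPM) than in the Gldc type (110 ± 20.7 CPM) in 15 of 15 mice and lowest in the Gfap-Thbs4 type (67.4 ± 35.5 CPM). Gja1 was at 393 ± 77.2, 346 ± 78.8 and 384 ± 79.7 CPM in the Gldc, Slc6a11 and Gfap-Thbs4 types, and was higher in the Gldc than in the Slc6a11 type in 13 of 15 mice, by 0.19 ± 0.19 on the log2 scale. Aldh1l1 was highest in the Slc6a11 type, at 161 ± 22.3 CPM against 123 ± 21.5 CPM in the Gldc type, in 15 of 15 mice, and at 127 ± 34.8 CPM in the Gfap-Thbs4 type.

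**Figure D2:**
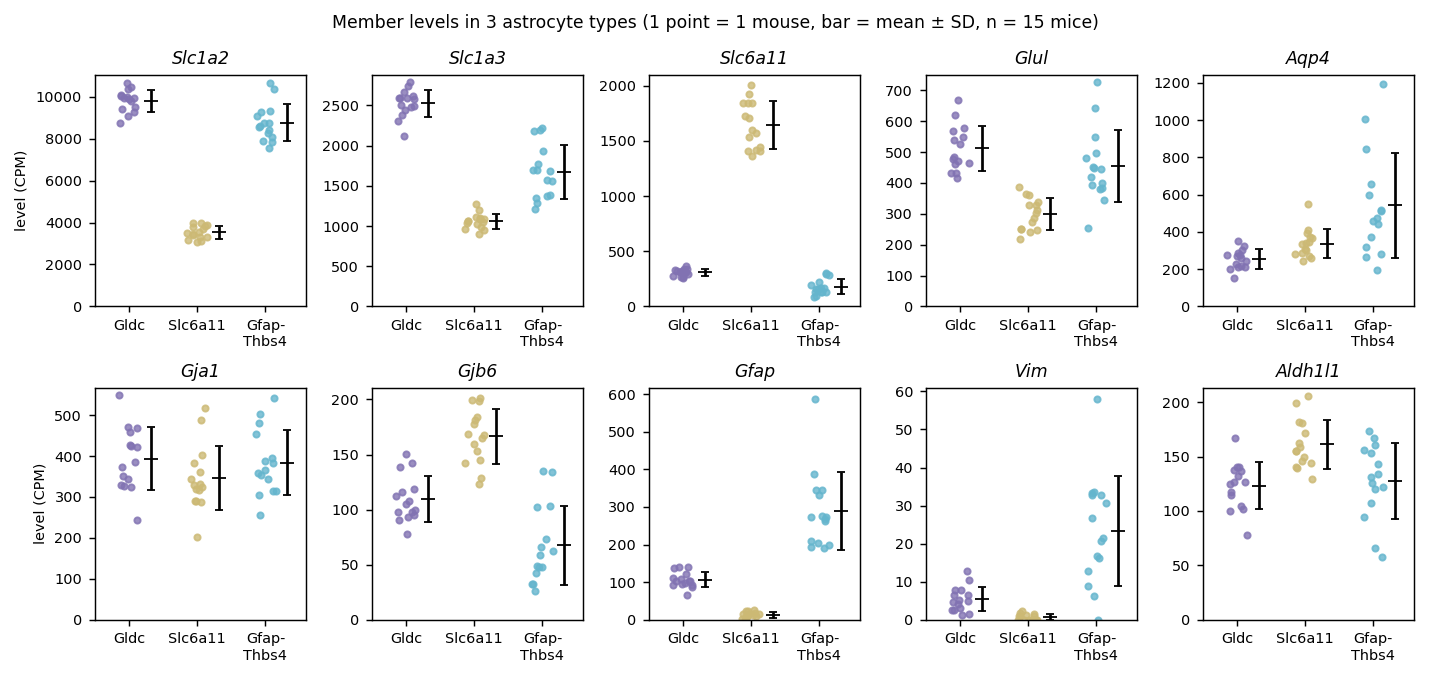
Level (CPM, linear axes) of each of the 10 genes in the Gldc, Slc6a11 and Gfap-Thbs4 astrocyte types, with 1 point per mouse and bars for mean ± SD over 15 mice. Slc1a2 and Slc1a3 separate the Gldc type from the Slc6a11 type without overlap, the points of Gja1 overlap in all 3 types, and Aqp4 spreads from 197 to 1193 CPM in the Gfap-Thbs4 type.

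The filament genes were lowest in the Slc6a11 type. Gfap, 1 of the genes that named the Gfap-Thbs4 type, was at 289 ± 103 CPM there, at 107 ± 20.8 CPM in the Gldc type and at 12.7 ± 7.20 CPM in the Slc6a11 type. Vim, which named no type, followed the same order, at 23.4 ± 14.4, 5.42 ± 3.25 and 0.656 CPM, the last from 9 UMIs in all. It was higher in the Gfap-Thbs4 than in the Gldc type in 14 of 15 mice, and the mouse without a Vim UMI in that type was NP replicate 5.

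Aqp4 was at 543 ± 282 CPM in the Gfap-Thbs4 type, 338 ± 76.8 CPM in the Slc6a11 type and 254 ± 52.2 CPM in the Gldc type, and it was higher in the Slc6a11 than in the Gldc type in 14 of 15 mice. The wide spread in the Gfap-Thbs4 type came with its make-up of 2 sub-clusters. Sub-cluster 0 (591 nuclei, led by Thbs4) held 247 ± 137 CPM of Aqp4 (n = 13 mice that had 10 or more such nuclei) and 221 ± 93.9 CPM of Gfap, and sub-cluster 7 (254 nuclei, led by Myoc) held 1065 ± 291 CPM of Aqp4 and 430 ± 116 CPM of Gfap (n = 12). Sub-cluster 7 passed the Thbs4 limit only narrowly, at 1.51-fold the level over all astrocytes, and sub-cluster 8, the nuclei of no type, missed it at 0.500-fold, with 1187 ± 329 CPM of Aqp4 and 497 ± 204 CPM of Gfap (n = 14), within 1 SD of sub-cluster 7. Slc1a2 differed between those sub-clusters, at 8175 ± 1355 CPM in sub-cluster 7 and 1971 ± 620 CPM in sub-cluster 8. When doublets were kept and the clusters rebuilt, the nuclei with the most Aqp4 fell outside the Gfap-Thbs4 type and its mean was 143 CPM over the 10 mice with enough nuclei of it.

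The genes most like each of the 10 in level across 24 named classes were found by Pearson's r of log levels over 15645 genes. Gja1 was among the 3 most like Aqp4 (r = 0.95) and also among the 3 most like Gjb6 (r = 0.94), and the gene most like Gjb6 was Slc7a11 (r = 0.95), which encodes the cystine-glutamate exchanger. For Slc1a2 the most alike was Gm13872 (r = 0.97), which overlaps it on the opposite strand. For Slc1a3 the 3 were Pdgfrl, Selenbp1 and Apoe (r = 0.93, 0.93 and 0.92), for Gfap they were led by the metallothionein gene Mt1 (r = 0.94), and for Vim they were Gbp2, Oasl2 and Ifitm3, known as interferon-induced genes (r = 0.93 each). The points are classes of the same 15 libraries, so these values are descriptions.

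Differences between groups were then tested in astrocytes with edgeR on the counts summed per mouse. None of the 10 genes passed an adjusted p of 0.05 in any of the 3 contrasts. Nor did any other of the 12584 genes tested (0 called, 0% in each contrast), while 288, 348 and 445 genes had an unadjusted p under 0.05 for control RE against NP, stress RE against control RE and stress RE against NP. DESeq2 also called 0 genes. Counts were also simulated with the means and depths of these astrocytes, for stress RE against control RE. There edgeR called 77% of 100 genes changed 2-fold and 98% of 100 genes changed 4-fold, and 5 unchanged genes. Smaller changes were not simulated. The 200 changed genes were simulated together, which loosens the adjusted threshold. These shares therefore do not give the chance of calling 1 changed gene alone.

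Slc1a2 was at 5513 to 7624 CPM in the 6 NP mice (median 6376 CPM), at 7081, 7471, 7499 and 7525 CPM in the 4 control RE mice, and at 6322, 6500, 6989, 7039 and 8285 CPM in the 5 stress RE mice. The control RE mice were close together and inside the NP range, above 4 of the 6 NP mice. The log2 difference of control RE from NP was 0.22 (SE 0.11, 95% interval -0.01 to 0.46, edgeR adjusted p = 1.00), and that of stress RE from NP 0.13 (SE 0.10, interval -0.09 to 0.35). Slc1a3 ran from 1509 to 1848 CPM in NP (median 1688 CPM), was at 1821, 1840, 1919 and 1996 CPM in control RE, and at 1494, 1734, 1852, 1940 and 2146 CPM in stress RE. Control RE overlapped NP in 2 mice, and stress RE spanned both groups. The difference of control RE from NP was 0.19 on the log2 scale (SE 0.10, interval -0.02 to 0.39). For Slc1a2 this difference was 0.12 within the Gldc type (interval -0.05 to 0.29) and 0.03 within the Slc6a11 type (interval -0.17 to 0.23). For Slc1a3 it was 0.10 (interval -0.09 to 0.29) and -0.01 (interval -0.20 to 0.18) in the same order. The part of the type shares in the whole-class differences was not tested.

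Slc6a11 was at 545 to 1110 CPM in NP (median 1018 CPM), at 645, 654, 728 and 903 CPM in control RE, and at 542, 699, 930, 943 and 1145 CPM in stress RE. The lowest NP mouse, replicate 3, was below every control RE mouse, and the other 5 were above all of them. Its difference of control RE from NP was -0.34 on the log2 scale (SE 0.20, interval -0.76 to 0.08). Within the Slc6a11 type alone the difference was -0.16 (SE 0.11, interval -0.39 to 0.06). That type was named by its Slc6a11 level, so this value is a description and no independent check. NP replicate 3 also had the smallest share of Slc6a11-type nuclei among NP astrocytes, 21.9%. Glul medians were 397 CPM (NP), 406 CPM (control RE) and 390 CPM (stress RE), and the groups overlapped, with log2 differences from -0.04 to 0.02.

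**Figure D3:**
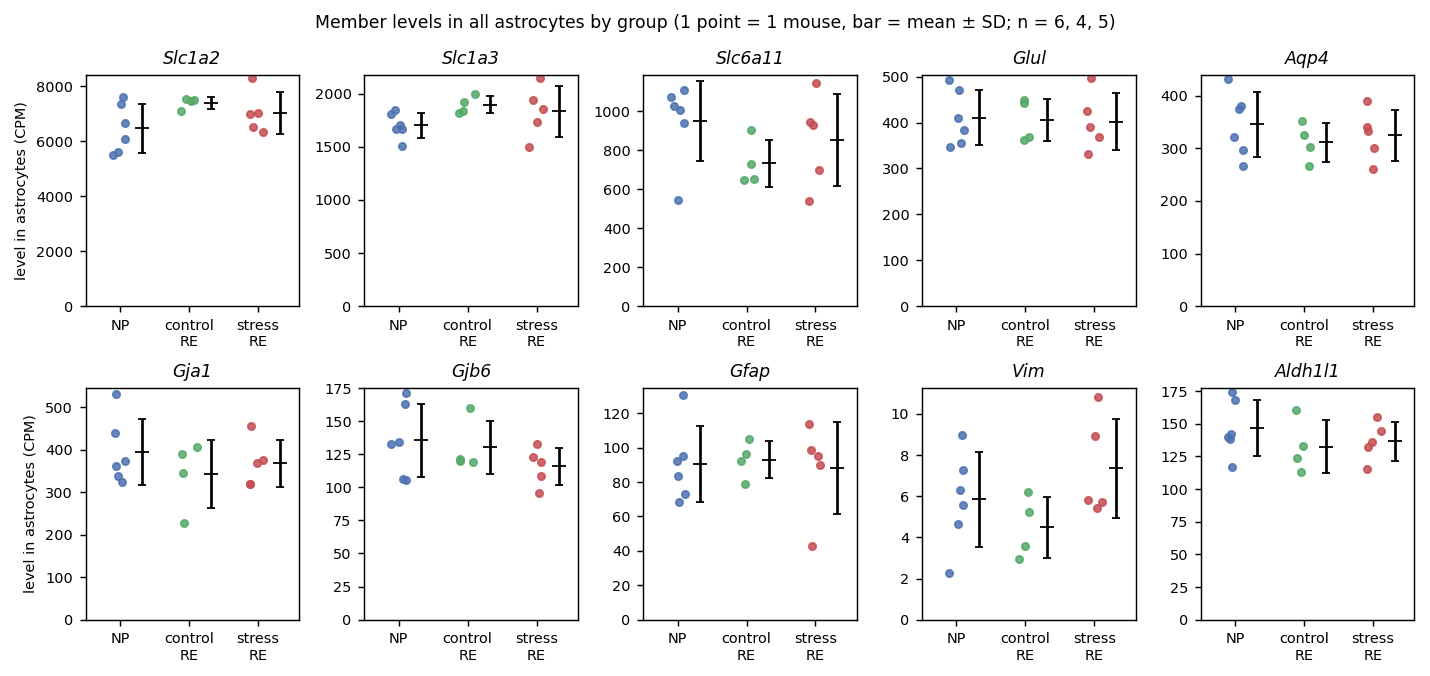
Level (CPM, linear axes) of each of the 10 genes in all astrocytes of NP, control RE and stress RE mice, with 1 point per mouse and bars for mean ± SD (n = 6, 4 and 5). The groups overlap for every gene, and the means of Glul are 410, 406 and 402 CPM.

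Aqp4 was at 267 to 431 CPM in NP (median 348 CPM), at 266, 302, 325 and 351 CPM in control RE, and at 260, 301, 333, 340 and 390 CPM in stress RE. The ranges of the groups overlapped. Gja1 medians were 368, 368 and 370 CPM in the same order of groups, and Gjb6 medians were 133, 121 and 119 CPM. For Gjb6 the log2 difference of stress RE from NP was -0.22 (SE 0.13, interval -0.48 to 0.05), and 4 of 5 stress RE mice lay inside the NP range of 105 to 171 CPM, in its lower part. Gfap medians were 87.8, 94.3 and 95.3 CPM, and the interval of the stress RE difference from control RE ran from -0.51 to 0.33 on the log2 scale. The lowest Gfap level, 42.9 CPM, was in stress RE replicate 2, which had the fewest astrocyte nuclei (208). Aldh1l1 medians were 141, 128 and 136 CPM.

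Vim was the gene with the lowest unadjusted p in astrocytes. It was at 2.27 to 8.98 CPM in NP (median 5.95 CPM), at 2.95, 3.56, 5.24 and 6.20 CPM in control RE, and at 5.45, 5.72, 5.80, 8.95 and 10.8 CPM in stress RE, from 76, 39 and 70 UMIs per group. The lowest 3 stress RE mice were inside the control RE range and the other 2 were above it. The log2 difference of stress RE from control RE was 0.73 (SE 0.34, interval 0.01 to 1.45, edgeR adjusted p = 1.00). In this contrast none of the 10 genes had an unadjusted p under 0.05 by DESeq2, nor by edgeR without a filter or with a batch term. The same held with the 10 genes among the variable genes, with doublets kept, and for the 9 genes tested with equal nuclei per mouse. With other scaling 1 gene had an unadjusted p under 0.05. The difference of mean log2 levels was 0.26 within batch 2 and 1.08 within batch 3, with 2 mice per group in each.

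**Figure D4:**
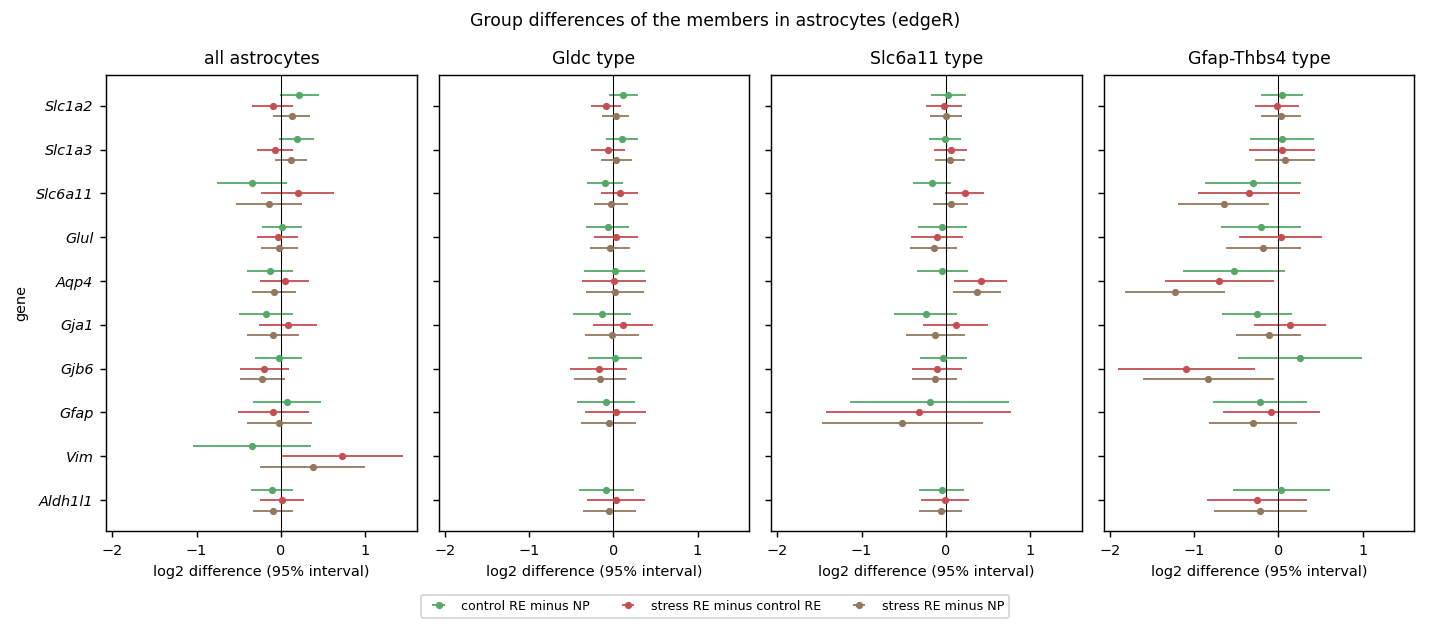
Log2 difference with its 95% interval (edgeR) for each of the 10 genes, in all astrocytes and in each of the 3 types (panels), for 3 contrasts, control RE against NP, stress RE against control RE and stress RE against NP, with 0 as a line. In all astrocytes the interval of Vim for stress RE against control RE, 0.01 to 1.45, is the only one that leaves out 0, the intervals of Aqp4 leave it out on opposite sides in the Gfap-Thbs4 and Slc6a11 types, and no gene passes the adjusted threshold.

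Within the types no gene passed the threshold either. In the Gldc type 9 of the 10 genes were tested (Vim had too few counts), among 10538 genes, and their log2 differences lay between -0.18 and 0.12. In the Slc6a11 type, with 9 of 9927 genes, they lay between -0.52 and 0.41. In the Gfap-Thbs4 type, with 9 of 3605 genes, they lay between -1.23 and 0.26. edgeR called 0% of genes in each of these types and contrasts, with 218 to 378 genes per contrast at an unadjusted p under 0.05 in the Gldc type, 273 to 378 in the Slc6a11 type and 82 to 258 in the Gfap-Thbs4 type. DESeq2 called none of the 10 genes in any type, and 1 gene of the Gldc type and 2 of the Slc6a11 type for stress RE against control RE.

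Aqp4 in the Gfap-Thbs4 type was the gene and type nearest to a call. Its level was 283 to 1193 CPM in NP (median 753 CPM), 457, 476, 517 and 601 CPM in control RE, and 197, 266, 320, 370 and 442 CPM in stress RE. Every stress RE mouse was below every control RE mouse. Of the 6 NP mice 5 were above every stress RE mouse, the exception being NP replicate 3. The share of the 3605 genes tested in this type that separate the groups in the same way is not given. The log2 difference of stress RE from NP was -1.23 (SE 0.28, interval -1.82 to -0.64, edgeR adjusted p = 0.201). The difference of stress RE from control RE was -0.70 (SE 0.31, interval -1.35 to -0.05, edgeR adjusted p = 0.839), and with 1 mouse left out it was -0.89 (without stress RE replicate 5) to -0.56 (without stress RE replicate 3). It was -0.81 with 13 nuclei per mouse, -0.72 with a batch term, -0.64 and -0.95 within batches 2 and 3, -0.19 with the 10 genes allowed to shape the clusters and -0.17 with doublets kept. The type held 13 to 127 nuclei per mouse, and 650, 347 and 289 Aqp4 UMIs in NP, control RE and stress RE.

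The call on Aqp4 turned on the filter and on NP replicate 3. With no filter for low counts, the edgeR value was -1.17 with an adjusted p of 0.00019, and 25 of 19224 genes were called. Without NP replicate 3 edgeR gave -1.42 with an adjusted p of 0.0113. With each mouse left out in turn, the edgeR adjusted p ran up to 0.687. DESeq2 gave -1.24 with an adjusted p of 0.512. The difference was -0.44 when the 10 genes were allowed to shape the clusters, where the type held 1500 nuclei in place of 845, and -0.53 with 13 nuclei drawn from each mouse. With doublets kept it was -0.15, but there the type held 489 nuclei and only 2 NP, 4 control RE and 4 stress RE mice had enough of them to be tested. Within batch 2 the difference of stress RE from NP was -0.51, and within batch 3 it was -1.82, with 2 mice per group.

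The make-up of the type varied widely between mice. Sub-cluster 7, which has the high Aqp4 level, was 48.7 ± 22.2% of the type in NP (n = 6), 34.2 ± 7.53% in control RE (n = 4) and 28.7 ± 20.9% in stress RE (n = 5), with overlapping ranges that were not tested. Pooled over the mice of a group, Aqp4 in sub-cluster 7 was at 1164 CPM (NP), 983 CPM (control RE) and 802 CPM (stress RE). The levels in sub-cluster 0 were 250, 188 and 168 CPM in that order. Only 2 stress RE mice had at least 10 nuclei of sub-cluster 7. In exact two-sided permutation tests within each sub-cluster the smallest p of 6 was 0.0794 (sub-cluster 0, stress RE against NP, -0.93 on the log2 scale, n = 4 and 5), with an adjusted p of 0.267. The smallest p that these numbers of mice allow, 0.00952, is above the 0.00833 that the first of 6 tests needs. How much of the difference in the whole type belongs to its make-up was not tested.

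**Figure D5:**
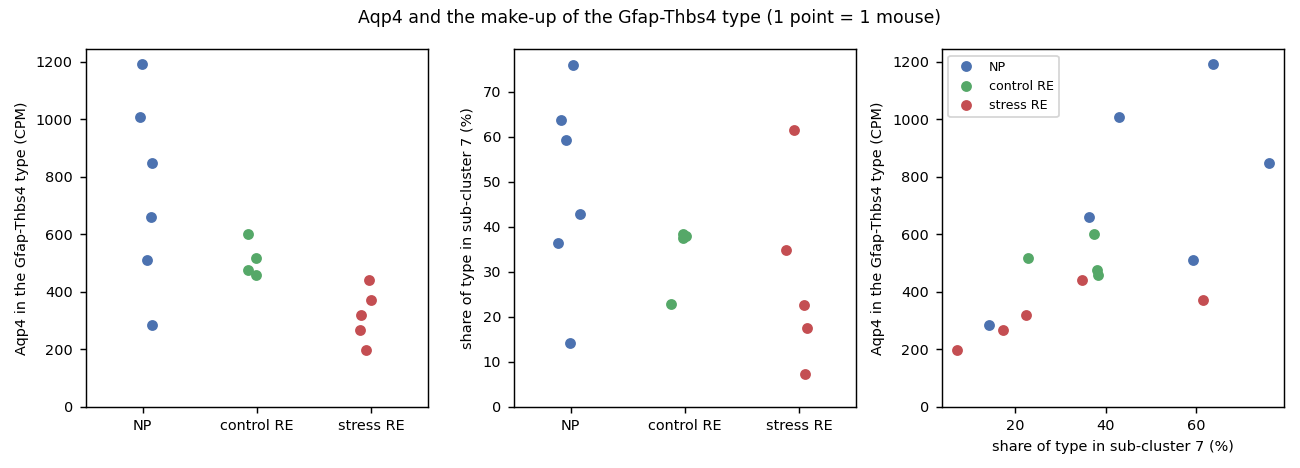
Aqp4 level (CPM) in the Gfap-Thbs4 type by group, the share (%) of that type in sub-cluster 7 by group, and both values plotted against each other, with 1 point per mouse. The 5 stress RE mice lie below the 4 control RE mice in Aqp4, at 197 to 442 against 457 to 601 CPM, and the share of sub-cluster 7 overlaps between all 3 groups.

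Of the other genes in the Gfap-Thbs4 type, Gjb6 and Slc6a11 had a low unadjusted p. Gjb6 was at 42.0 to 135 CPM in NP (median 67.8 CPM), 32.8, 65.7, 104 and 134 CPM in control RE and 25.8, 31.996, 47.9, 48.0 and 48.3 CPM in stress RE, from 69, 59 and 37 UMIs. The stress RE mice were all below 3 of the 4 control RE mice and overlapped the lowest. The log2 difference of stress RE from control RE was -1.09 (SE 0.39, interval -1.91 to -0.28, edgeR adjusted p = 0.839), -0.90 within batch 2, -1.05 within batch 3 and -0.47 when the 10 genes were allowed to shape the clusters. Slc6a11 differed between stress RE and NP by -0.65 (SE 0.26, edgeR adjusted p = 0.614).

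In the Slc6a11 type, Aqp4 ran the other way. It was at 258 to 369 CPM in NP (median 313 CPM), 245, 301, 310 and 335 CPM in control RE and 283, 371, 394, 411 and 548 CPM in stress RE. Of the 5 stress RE mice, 4 were above every NP and control RE mouse, and stress RE replicate 2 was inside both ranges. The log2 difference of stress RE from control RE was 0.41 (SE 0.15, interval 0.09 to 0.73, edgeR adjusted p = 1.00), 0.50 within batch 2 and 0.54 within batch 3. In the Gldc type the difference was 0.00 (interval -0.38 to 0.38). Whether the types differed in their response was tested on the within-mouse log2 ratio of levels between types, over 90 tests of the 10 genes. The smallest exact two-sided permutation p was 0.0130, for Aqp4 in the Gfap-Thbs4 over the Slc6a11 type in stress RE against NP (a difference of -1.49 on the log2 scale, n = 5 and 6), with an adjusted p of 0.602. A single difference could not pass here: the smallest p these groups allow is 0.00433, and the first of 90 tests needs 0.000556.

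The shares of the types did not pass a test between groups. The astrocyte share of nuclei was 7.64 ± 1.53% for NP, 7.21 ± 1.59% for control RE and 6.26 ± 1.66% for stress RE. Among astrocytes the Gldc type was 42.7 ± 8.71%, 51.9 ± 4.66% and 47.4 ± 10.9%, the Slc6a11 type 44.4 ± 12.4%, 37.2 ± 3.46% and 38.6 ± 14.9%, and the Gfap-Thbs4 type 8.36 ± 4.84%, 8.25 ± 2.18% and 11.1 ± 4.68%. The nuclei of no type, which have the high Aqp4 and Gfap levels, made up 4.55 ± 1.42% (NP), 2.62 ± 0.594% (control RE) and 2.89 ± 0.972% (stress RE) of astrocytes. The exact two-sided permutation p of control RE against NP for that share was 0.0286, the smallest of 15, with an adjusted p of 0.429. The difference of control RE from NP was -1.92 percentage points, with -1.36 within batch 2, -3.78 within batch 3 and a change of direction to 0.974 with doublets kept. The smallest p that any of these contrasts allows, 0.00433 for stress RE against NP, is above the 0.00333 that the first of 15 tests needs. A single share could therefore not pass.

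Summed over all nuclei of a punch, a measure closer to bulk tissue, none of the 10 genes was called in any contrast. The log2 differences of stress RE from NP were negative for all 10, from -0.69 (Vim) to -0.05 (Slc1a2). Their median was -0.46 against -0.0011 over all 21165 genes tested. In control RE against NP, 8 of the 10 differences were negative, with a median of -0.34 against -0.017 over all genes. In stress RE against control RE the median was -0.09. In such sums, fewer cells of a class and less RNA per cell cannot be told apart, for astrocytes or for the other classes that express these genes. Astrocytes gave 11.5% of the Vim UMIs, 25.8% of the Glul UMIs and 50.0% of the Slc1a2 UMIs. The median over the 10 genes in the astrocytes alone was -0.05, and the astrocyte share was 6.26% in stress RE and 7.64% in NP. Gjb6 in the whole punch was at 5.25 to 9.95 CPM in NP (median 8.25 CPM), 4.40, 5.12, 5.62 and 8.23 CPM in control RE and 3.77, 3.88, 4.66, 5.25 and 5.98 CPM in stress RE. Only the lowest NP mouse was within the stress RE range, and control RE overlapped both groups. Its log2 difference of stress RE from NP was -0.68 (SE 0.19, edgeR adjusted p = 0.999).

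Gja1 differed between stress RE and NP by -0.49 in the whole punch (SE 0.16, edgeR adjusted p = 0.999), and between control RE and NP by -0.43 (SE 0.17, edgeR adjusted p = 0.928). In all, 5 of the 10 genes had an unadjusted p under 0.05 for stress RE against NP, 2 for control RE against NP and 0 for stress RE against control RE, and none was called. Over all genes edgeR called 1 gene for control RE against NP (0.00472%) and 0% in the other 2 contrasts, with 842, 180 and 851 genes at an unadjusted p under 0.05 for control RE against NP, stress RE against control RE and stress RE against NP. DESeq2 called 29, 0 and 1 genes, none of them among the 10. Control RE and stress RE share the NP mice in these contrasts, so their differences from NP are not independent.

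In 23 other classes, the astrocytes of no type among them, 98 tests of the 10 genes were possible in each contrast, and none passed. The classes together gave 200475 tests per contrast, of which edgeR called 1 for control RE against NP (0.000499%), 3 for stress RE against control RE (0.0015%) and 0 for stress RE against NP (0%), where 7843 passed 0.05 before adjustment. DESeq2 called 136, 16 and 0 in the same order of contrasts, none of them 1 of the 10 genes, and edgeR without a filter on low counts called 145, 142 and 165, of which 0, 2 and 1 were Slc1a2. Of the 98 tests 7, 3 and 4 had an unadjusted p under 0.05 in the same order of contrasts. Over all genes the counts were 7789, 4875 and 7843 of 200475 tests. The smallest p values were in the astrocytes of no type (12 to 39 nuclei per mouse), for control RE against NP. Stress RE replicate 2 had under 10 such nuclei and was not in that fit. There Slc6a11 differed by -0.95 (SE 0.34, interval -1.65 to -0.24) and Gfap by 0.78 (SE 0.29, interval 0.19 to 1.38), both with an edgeR adjusted p of 0.575. Slc1a3 in the same nuclei differed from NP by 0.58 in control RE (edgeR adjusted p = 0.684) and 0.64 in stress RE (edgeR adjusted p = 0.431). The smallest p of stress RE against control RE was that of Slc1a2 in CA2 pyramidal neurons, with a log2 difference of 1.42 (SE 0.52, edgeR adjusted p = 1.00). Slc1a2 in hilar mossy cells differed by 0.31 (SE 0.12, edgeR adjusted p = 1.00) in the same contrast. Vim in endothelial cells, its highest class, differed between stress RE and NP by -0.53 (SE 0.25, edgeR adjusted p = 0.999).

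The wider pathways were described with 7 lists of 89 genes, 62 of which had enough counts in astrocytes. None of the 62 was called by edgeR in any contrast. An unadjusted p under 0.05 was found for 7, 3 and 2 of them for control RE against NP, stress RE against control RE and stress RE against NP. The counts over all 12584 genes tested in astrocytes were 288, 348 and 445 in that order. DESeq2 called none of the 62. The lists covered transmitter handling (12 of 12 genes tested), water, potassium and ion buffering (12 of 13), gap junction partners (2 of 8), filaments and cytoskeleton (6 of 7), reactive astrocyte genes (10 of 26), folate and one-carbon enzymes (7 of 10) and other astrocyte identity genes (13 of 13). Their median log2 differences ranged from -0.35 (reactive genes, control RE against NP) to 0.18 (identity genes, stress RE against control RE), with all-gene medians from -0.0075 to 0.0074.

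Levels of genes of these lists by type are given as mean ± SD over mice, with no test. Slc4a4, a sodium bicarbonate cotransporter, was at 4279 ± 340 CPM in the Slc6a11 type and 2217 ± 241 CPM in the Gldc type. Dtna, of the same list, ran the other way, at 1604 ± 87.4 and 2300 ± 146 CPM in that order. Glud1, glutamate dehydrogenase, was at 436 ± 56.3 and 436 ± 47.0 CPM in the same order of types, and Nfia, a transcription factor of astrocyte development, at 2273 ± 108 and 2503 ± 115 CPM. Among reactive astrocyte genes, the complement gene C4b was at 122 ± 60.2 CPM in the Gfap-Thbs4 type, 45.0 ± 21.9 CPM in the Gldc type and 9.77 ± 6.22 CPM in the Slc6a11 type. Apoe, a lipid carrier, was at 2543 ± 926, 1560 ± 599 and 1012 ± 365 CPM in the same order. The cytoskeletal linker gene Ezr was at 92.2 ± 29.5, 100.1 ± 16.0 and 15.3 ± 7.27 CPM in the Gfap-Thbs4, Gldc and Slc6a11 types, and the connexin gene Gjc3 was at 9.37 ± 8.13, 7.99 ± 3.87 and 26.95 ± 7.64 CPM. Tjp1, of the same list as Gjc3, was lowest in the Slc6a11 type, at 640 ± 191, 654 ± 63.1 and 494 ± 41.7 CPM. Stat3, a transcription factor of the reactive state, was at 109 ± 38.7, 73.4 ± 12.7 and 66.2 ± 15.8 CPM in the same order, and Mthfd1, a folate enzyme like Aldh1l1, at 45.5 ± 20.7, 44.6 ± 6.24 and 53.1 ± 8.10 CPM. Slc7a11 was singled out after its values were seen, as the list gene with the lowest p in astrocytes, with a log2 difference of stress RE from control RE of 0.44 (SE 0.11, interval 0.22 to 0.67, edgeR adjusted p = 1.00). In the Slc6a11 type it was 0.54 (SE 0.14, edgeR adjusted p = 0.946).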

How the data were processed

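Nuclei from bilateral dHF micropunches were isolated on a sucrose gradient and sequenced with 10x 3' chemistry, 1 library per mouse. The authors deposited raw UMI counts per gene and barcode, 15 matrices with no normalization. Per the labels the reads were counted with Cell Ranger 7.1.0, while the matrix headers name 7.0.0, and the gene models are those of the 10x mouse reference of mm10 (GRCm38). No annotation of cell types was used here. The paper corrected its counts for free RNA with SoupX, and no such correction was made here. The paper also removed clusters of neurons from outside the dHF and of choroid plexus, ependymal and vascular leptomeningeal cells. Such clusters were kept here, in the levels by class and in the sums over the whole punch.

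Barcodes with at least 200 genes and at most 5% mitochondrial UMIs were kept, and the highest Scrublet scores, at 0.8% per 1000 barcodes, were removed as doublets. Counts were clustered with scanpy 1.11.5 (2000 variable genes without the 10 genes described, 30 principal components, 15 neighbours, Leiden resolution 1), without batch integration, and marker lists gave the names of clusters with 50 or more nuclei (at least 3 markers at 5 CPM and 2-fold). The naming limits and the 1.5-fold limit for astrocyte types were set after the clusters were seen. UMIs were summed per mouse and class for mice with at least 10 nuclei, and tested with edgeR 4.0.16 (quasi-likelihood, filterByExpr, TMM, all 3 groups in 1 fit) in R 4.3.3, with Benjamini-Hochberg adjustment over all genes of a class and contrast and a threshold of 0.05. DESeq2 1.42.0 was the other tool. The edgeR and DESeq2 fits were tested on simulated astrocyte counts. Shares and ratios between types were compared with exact permutation tests over mice. Within-batch values are differences of mean log2 CPM with no test.

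The library totals were 40602582 to 96211264 UMIs. Intervals of shares are 95% Wilson intervals and cover counting error only. Groups came from the labels, and replicates were numbered in accession order. Alternatives were other scaling, no filter, a batch term, each mouse left out, equal nuclei per mouse, the 10 genes among the variable genes and doublets kept. Tests within sub-clusters, ratios between types and within-batch values in the types were added after the data were seen. The genes described and the gene lists were chosen with earlier results of these data known. Of each list, the 2 genes with the highest level in astrocytes were eligible to be named, and for each of the 10 genes the 3 most alike across classes. Some results are not reported here.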

Additional observations from a re-analysis of the deposited data

Results flagged for a closer look

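In 9 of 135 groups of mice, the highest or lowest mouse stood apart from the others by Dixon's criterion, where chance gives about 1 in 20. In all astrocytes, control RE replicate 4 had the lowest Slc1a2 level of its group, at 7081 CPM. NP replicate 3 had the lowest Slc6a11 level, at 545 CPM, and also the highest share of the Gfap-Thbs4 type among NP astrocytes, 17.6%. Control RE replicate 1 had the highest Gjb6 level in astrocytes, 160 CPM, and the highest Slc6a11 level in the Slc6a11 type, 1709 CPM. In the Slc6a11 type stress RE replicate 3 had the highest Glul level, 387 CPM, stress RE replicate 4 the highest Gja1 level, 487 CPM, and control RE replicate 4 the highest Gfap level, 21.8 CPM. In the Gldc type control RE replicate 2 had the highest Gfap level, 121 CPM.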

How the results depend on the processing

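Under the alternatives, no value of the 10 genes passed the threshold among 717 in astrocytes, 648 in the Gldc type, 645 in the Slc6a11 type and 570 in the whole punch, and 2 of 645 passed in the Gfap-Thbs4 type, those of Aqp4 given above. The sign differed from the reported value in 57, 90, 54, 26 and 65 of them, in that order. The totals of astrocytes and of the types include the within-batch values, which had no test and so could not pass. The total of the Gfap-Thbs4 type also includes the permutation tests within sub-clusters, where a single difference could not pass. The causes of the changes below were not tested.

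In the Gfap-Thbs4 type, with doublets kept and only 2 NP mice left with enough nuclei, control RE against NP turned to 0.0199 for Aqp4 and 0.19 for Gja1, and stress RE against NP to 0.79 for Gfap. With equal nuclei per mouse, control RE against NP turned to 0.29 for Aqp4, 0.14 for Gja1 and 0.0262 for Slc6a11. In the whole punch, stress RE against control RE for Slc1a3 ran from -0.36 to 0.0023 with 1 mouse left out, positive without control RE replicate 3.

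Counts of genes called were 0 in the astrocyte types. In the Gfap-Thbs4 type they became 1 for stress RE against control RE with doublets kept, and for stress RE against NP 25 without a filter, 1 of them Aqp4, and 0 to 3 with 1 mouse left out (0 to 1 for the 10 genes). For stress RE against control RE the Gldc type gave 1 by DESeq2, 2 without a filter, 1 with equal nuclei and 0 to 1 with 1 mouse left out, and the Slc6a11 type 2 by DESeq2, 2 without a filter, 2 with doublets kept and 0 to 2 with 1 mouse left out. The Slc6a11 type gave 4 for stress RE against NP without a filter. The whole punch gave 29 by DESeq2 for control RE against NP and 0 to 4 with 1 mouse left out, 0 without control RE replicate 1, 2 or 3 and 4 without NP replicate 3, and 1 by DESeq2 for stress RE against NP. In other classes, DESeq2 called 136 and no filter 145 for control RE against NP, with 0 under a batch term. For stress RE against control RE DESeq2 called 16 and no filter 142, 2 of them Slc1a2 (CA2 neurons and newly formed oligodendrocytes), and for stress RE against NP no filter called 165, with 1 for Slc1a2 in newly formed oligodendrocytes. There stress RE replicate 2 was at 2014 CPM of Slc1a2 and 4942 CPM of astrocyte markers, the other 4 stress RE mice were at 22.1 to 659 CPM of Slc1a2, and no fit was made without it.

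The astrocyte share of stress RE against control RE, -0.951 percentage points, was 0.888 within batch 2. The share of no type for control RE against NP, -1.92 points, was 0.974 with doublets kept and -3.78 within batch 3, and for stress RE against NP it was -3.13 within batch 3. Unthinned, the shares of astrocyte nuclei with a UMI were 99.4% (Slc1a2), 94.1% (Slc1a3), 70.7% (Slc6a11), 67.5% (Glul), 56.5% (Aqp4), 65.1% (Gja1), 33.7% (Gjb6), 20.5% (Gfap), 1.88% (Vim) and 36.6% (Aldh1l1). No paired analysis was possible because the labels give no replicate numbers that tie mice of different groups, and the numbers here only follow accession order. Batch was fitted as a term instead.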
